A study of Mus musculus with 21 samples.

Results

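Base was compared with apex among spiral ganglion neurons of mice that had received a truncated SK3 channel, with 3 base libraries set against 3 apex libraries. These 6 of the 21 libraries of the series were taken by their titles, and all 14968 genes that passed a filter on low counts were tested. Spiral ganglion neurons are the first neurons of the hearing pathway. They were taken from cochleae at postnatal day 7, drawn up by micropipette at about 50 neurons a library, and their polyadenylated RNA was read by the Smart-seq2 method. The main groups were truncated SK3 base and truncated SK3 apex, in which an adeno-associated virus delivered the truncated channel, labelled as dominant-negative for mouse SK3. For comparison, DN-HCN2 base (3 libraries) and DN-HCN2 apex (4) carried a virus with a mutated, dominant-negative HCN2 channel, and control base (4) and control apex (4) carried a virus with EGFP. Every group had thus received a virus. The labels name no strain, promoter or share of transduced neurons, and do not say which animals the replicates came from, so p-values measure the spread between these libraries only.

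The cochlea is laid out by frequency, with high tones at the base and low tones at the apex, and its neurons differ along this axis in ion channels, synapses and adhesion molecules. SK3 is a potassium channel opened by calcium that limits repeated firing. Basal neurons in culture are known to adapt faster than apical ones, and voltage-gated potassium channels differ along the axis. One potassium current, the inactivating A-type current, is often carried by Kv4 channels, whose surface level and inactivation are tuned by the KChIP proteins (genes Kcnip1 to Kcnip4) and by the DPP-like subunits.

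Total counts ran from 10411634 to 12521752 in truncated SK3 base and from 10727194 to 13578107 in truncated SK3 apex, within the range of the series (10411634 to 15138780). Levels are given in CPM, which are counts as a share of the library total after TMM scaling. Across genes, Spearman correlations between libraries were 0.932 to 0.948 within truncated SK3 base and 0.904 to 0.941 within truncated SK3 apex. Genes are not replicates, so these values describe the libraries only. All 15 markers of spiral ganglion neurons were measured, and summed to 13820 to 17910 CPM in truncated SK3 base and 13080 to 15710 CPM in truncated SK3 apex. The libraries also held RNA of other cell types, described first because several of the largest differences move with it. In such small pools, fewer cells of a type and less RNA per cell cannot be told apart.

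Hair cell and otic epithelium genes were summed over members that were not at 10 CPM or more in every library. This sum was higher in the apex libraries, above all in replicates 2 and 3. It was 215.8, 467.2 and 658.9 CPM in truncated SK3 base, against 2110, 5054 and 5490 CPM in truncated SK3 apex. The 2 groups did not overlap, and apex replicate 1 stood closest to the base libraries. In control the same sum was 241.7 to 458.5 CPM in base and 895.2 to 2462 CPM in apex. Over the whole hair cell list the order differed, and the groups overlapped. That list summed to 9074, 9408 and 10410 CPM in truncated SK3 base, against 6684, 7896 and 10290 CPM in truncated SK3 apex. The whole supporting cell and otic epithelium list summed to 4978, 5409 and 5804 CPM, against 6345, 8214 and 9066 CPM. Oligodendrocyte genes, summed in the same restricted way, went opposite to the restricted epithelial sum and were carried mostly by 1 base library. Their summed level was 6830, 131.1 and 210.0 CPM in truncated SK3 base, against 136.1, 57.24 and 26.93 CPM in truncated SK3 apex. Base replicate 1 stood far above the rest, and base replicate 2 lay just under apex replicate 1. In control, 3 of 4 base libraries were also high, at 1544 to 2810 CPM, with base replicate 2 at 84.23 CPM, against 51.17 to 75.33 CPM in apex. Oligodendrocytes myelinate axons in the central nervous system, and the auditory nerve passes from Schwann cell to oligodendrocyte myelin on its way to the brain.

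**Figure D1:**
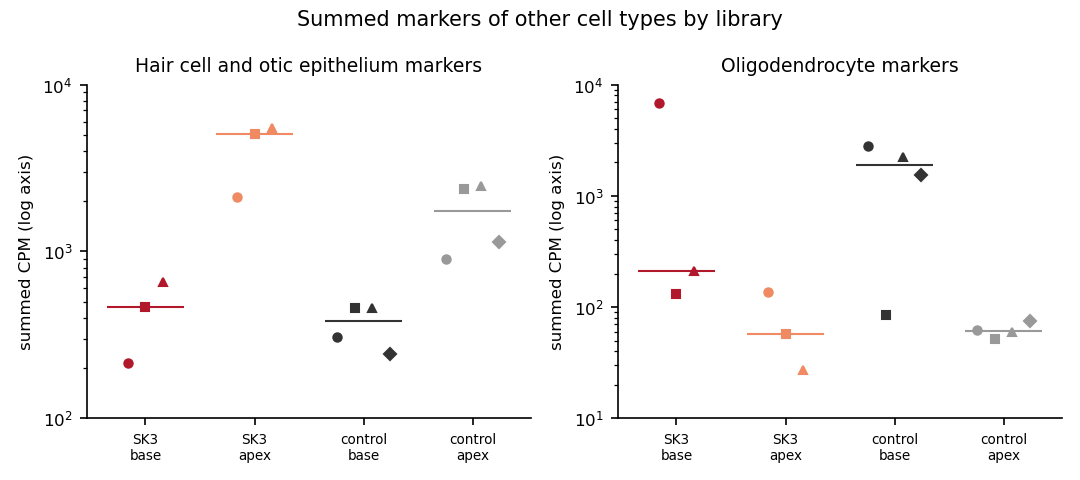
Summed CPM (log axis) of hair cell and otic epithelium markers (left) and of oligodendrocyte markers (right) in each library, with a bar at each group's median. Members at 10 CPM or more in every library were left out of these sums. Circle, square, triangle and diamond are replicates 1 to 4. Truncated SK3 apex replicates 2 and 3 reach 5054 and 5490 CPM on the left, and truncated SK3 base replicate 1 reaches 6830 CPM on the right.

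Only 2 of 14968 genes passed the test between base and apex under truncated SK3, and both were lower in base (0.0134% of genes; edgeR quasi-likelihood test, Benjamini-Hochberg adjusted p under 0.05). At an unadjusted p under 0.05 there were 697 higher (4.66%) and 737 lower genes (4.92%), or 9.58% in all. Every base library lay above every apex library for 938 genes (6.27%), and below for 953 (6.37%). In control the shares above and below were 2.64% and 2.85%, and under DN-HCN2 3.63% and 2.87%, but 4 against 4 and 3 against 4 libraries separate less often than 3 against 3 by number alone, so these shares do not compare the conditions. An exact permutation test of 3 against 3 libraries cannot go below p = 0.1, so the calls rest on the spread shared over all 6 groups. The count of calls was 212 with DESeq2 (79 higher, 133 lower), 0 with limma-voom and 0 when only the 6 libraries were fitted. It was 26 without apex replicate 1, 1 without apex replicate 3 and 0 without apex replicate 2 or any 1 of the base replicates.

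The first of the 2 calls was Kcnip4 (GRCm38 chromosome 5, 48389502 to 49524907, minus strand), which encodes KChIP4, a calcium-binding subunit of Kv4 channels, some isoforms of which slow their inactivation. Kcnip4 had 3.57, 2.18 and 7.45 CPM in truncated SK3 base, against 58.8, 48.4 and 68.6 CPM in truncated SK3 apex. All 3 base libraries were low, and the apex libraries were high at a like level, at epithelial marker sums of 2110, 5054 and 5490 CPM. Each of these sums was above those of the base libraries, and the part of other cells in Kcnip4 was not tested. Kcnip4 passed at an edgeR adjusted p of 0.044, with a log2 fold change of -3.74 (SE 0.619). In the fits without 1 library it lay between -4.35 and -3.41, and it was -3.75 without the 2 apex libraries rich in epithelial markers (edgeR adjusted p = 0.265). That fit leaves 1 apex library, which is assumed to vary like the other groups. The call itself was lost in 5 of the 6 fits without 1 library and held only without apex replicate 1, and was lost with limma-voom (adjusted p = 0.275).

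The same gradient of Kcnip4 was present in libraries that this comparison does not use. Kcnip4 had 0.87, 0.834 and 0.734 CPM in DN-HCN2 base, against 17.2, 36.1, 69.9 and 59.0 CPM in DN-HCN2 apex (log2 fold change -5.79, SE 0.691, edgeR adjusted p = 0.000676). In control Kcnip4 had 3.92, 2.90, 1.22 and 8.51 CPM in base, against 13.6, 21.8, 29.9 and 36.3 CPM in apex (log2 fold change -2.62, SE 0.512, edgeR adjusted p = 0.228). The groups did not overlap in any of the 3 conditions, though the control difference did not pass the test. The interaction, the difference under truncated SK3 minus that in control, was -1.12 for Kcnip4 (SE 0.747, edgeR adjusted p = 1), so a difference from control was not detectable with these libraries.

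Kcnip1 (chromosome 11, 33629339 to 33993152, minus strand), which encodes KChIP1, a subunit that raises Kv4 currents in expression systems, ran opposite to Kcnip4. Kcnip1 had 112, 143 and 116 CPM in truncated SK3 base, against 61.8, 56.4 and 68.4 CPM in truncated SK3 apex. The groups were apart, with the lowest base library well above the highest apex library. The log2 change of Kcnip1, 0.99 with an SE of 0.195, did not pass the test (edgeR adjusted p = 0.12), and it kept between 0.87 and 1.06 in the fits without 1 library. Kcnip1 had 126, 162 and 187 CPM in DN-HCN2 base, against 53.4, 61.2, 68.1 and 59.2 CPM in DN-HCN2 apex, where the test was passed (log2 fold change 1.39, SE 0.18, edgeR adjusted p = 0.00126). In control the groups of Kcnip1 overlapped, at 97.4 to 124 CPM in base and 70.1 to 117 CPM in apex (log2 fold change 0.27, SE 0.167, edgeR adjusted p = 1). The interaction of truncated SK3 against control for Kcnip1 was 0.72 (SE 0.256, unadjusted p = 0.0105, edgeR adjusted p = 1).

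The 250 bases before the most upstream start that RefSeq lists for each of these genes are shown because Kcnip4 and Kcnip1, the KChIP genes with the smallest p, have opposite gradients. Both stretches are on GRCm38.p6, minus strand, at chr5:49285660-49285909 for Kcnip4 and chr11:33993194-33993443 for Kcnip1, 5′ to 3′, with capitals at matches to the motifs searched.
Kcnip4: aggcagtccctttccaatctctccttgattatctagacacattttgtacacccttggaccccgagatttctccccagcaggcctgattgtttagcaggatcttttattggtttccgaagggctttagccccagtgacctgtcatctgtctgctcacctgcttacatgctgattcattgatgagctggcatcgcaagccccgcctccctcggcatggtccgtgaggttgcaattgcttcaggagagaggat
Kcnip1: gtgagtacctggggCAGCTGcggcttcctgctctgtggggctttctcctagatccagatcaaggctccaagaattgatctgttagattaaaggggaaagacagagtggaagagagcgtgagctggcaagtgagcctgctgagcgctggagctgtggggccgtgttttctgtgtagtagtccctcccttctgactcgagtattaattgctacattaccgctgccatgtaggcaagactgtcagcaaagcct
Motifs were searched on both strands as the E-box CAGCTG, the TATA box TATAAA, the GC box GGGCGG and the cAMP response element half-site TGACG. The Kcnip1 stretch held 1 E-box, in capitals, and the Kcnip4 stretch held no match. Of 32851 RefSeq stretches of this length, 13.0% held the E-box, 12.4% the TATA box, 32.7% the GC box and 17.8% the half-site. These are matches of letters only. RefSeq lists 2 start sites for Kcnip4 and 3 for Kcnip1, and counts per gene do not tell which was used. The Kcnip4 stretch lies inside the gene as GENCODE places it, which reaches 49524907. The bases right after the Kcnip1 start were found in no GENCODE transcript of that gene.

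Among 9 measured A-type channel genes and KChIPs, 1 gene, Kcnip4, was called lower, and 3 were higher at an unadjusted p under 0.05. Genes at that p, in either direction, were 44.4% of the list, against 9.58% of all genes. The list's median log2 fold change was -0.20, against 0.00 over all genes tested. Kcnip2 (KChIP2) had 143, 195 and 103 CPM in truncated SK3 base, against 119, 79.0 and 86.1 CPM in truncated SK3 apex. These overlapped, since base replicate 3 lay under apex replicate 1, and Kcnip2 differed by 0.64 on the log2 scale (SE 0.263, edgeR adjusted p = 0.449). Kcnip2 thus also ran opposite to Kcnip4, and in control and under DN-HCN2 its groups were apart, with base above apex (log2 fold changes 0.54 and 1.04). Dpp6, a DPP-like subunit that speeds Kv4 gating, had 80.3, 96.9 and 63.7 CPM in truncated SK3 base, against 53.4, 61.2 and 42.9 CPM in truncated SK3 apex. The groups of Dpp6 were apart by a narrow margin (log2 fold change 0.61, SE 0.29, edgeR adjusted p = 0.515). In control and under DN-HCN2 the groups of Dpp6 overlapped, with log2 fold changes of -0.34 and 0.14. Of the Kv4 genes themselves, Kcnd2 was at -1.57 (SE 0.824), Kcnd1 at -0.30 (SE 0.481) and Kcnd3 at 0.23 (SE 2.08) on the log2 scale.

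**Figure D2:**
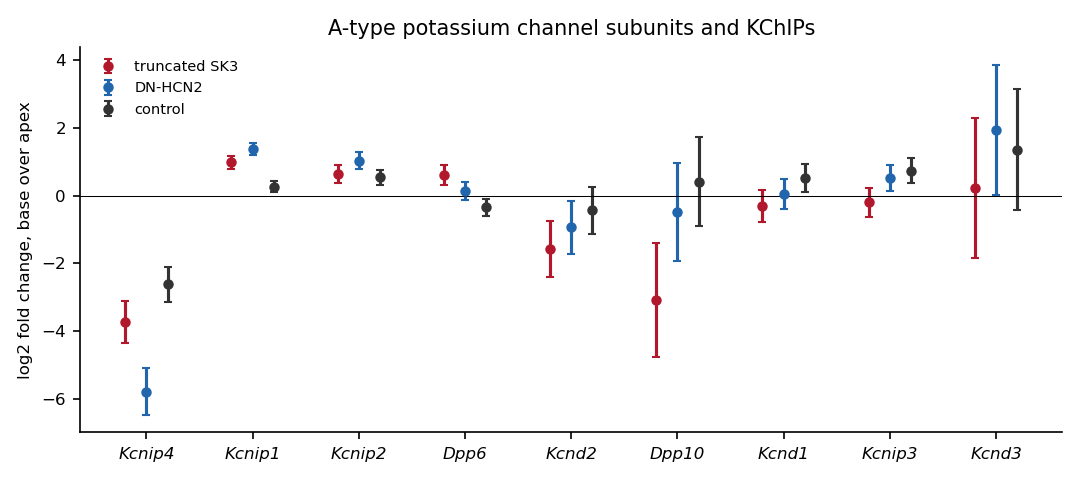
Log2 fold change of base over apex with its standard error (bars) for the 9 members of the A-type channel and KChIP list, under truncated SK3, DN-HCN2 and in control. Kcnip4 lies below 0 in the 3 conditions (-3.74, -5.79 and -2.62), and Kcnip1 above 0 (0.99, 1.39 and 0.27).

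The second call was Sh2d6 (chromosome 6, 72513641 to 72521707, minus strand), which encodes an adaptor protein with an SH2 domain. Sh2d6 had 0, 0.242 and 0.0967 CPM in truncated SK3 base, against 1.06, 38.4 and 39.8 CPM in truncated SK3 apex. The level came from apex replicates 2 and 3, the libraries rich in hair cell and otic epithelium genes, and apex replicate 1 was close to base. Sh2d6 passed at an edgeR adjusted p of 0.044, with a log2 fold change of -7.67 (SE 1.25), which was -3.06 without those 2 libraries (edgeR adjusted p = 1). Of the 6 fits without 1 library, only that without apex replicate 1 kept the call of Sh2d6. In control Sh2d6 had 1.42 to 2.60 CPM in base and 5.65 to 20.9 CPM in apex, groups that did not overlap either (log2 fold change -2.29, edgeR adjusted p = 0.746).

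The other genes with the smallest p, among those that averaged at least 10 CPM in the higher group, did not pass the test. Otog, which encodes otogelin of the tectorial membrane, had 0.510, 0.484 and 0.484 CPM in truncated SK3 base, against 27.1, 198 and 115 CPM in truncated SK3 apex. Lad1, a gene of the anchoring filaments of epithelia, had 0.102, 0.242 and 0 CPM in truncated SK3 base, against 1.06, 66.1 and 38.0 CPM in truncated SK3 apex. Kremen1, a receptor that dampens Wnt signals, had 30.8, 24.3 and 11.1 CPM in truncated SK3 base, against 46.1, 220 and 102 CPM in truncated SK3 apex. Apex replicate 1 was the lowest apex library for Otog, Lad1 and Kremen1, as for the epithelial markers. Anxa5, an annexin that binds membrane phospholipid, had 333, 258 and 449 CPM in truncated SK3 base, against 463, 1679 and 2197 CPM in truncated SK3 apex, again with apex replicates 2 and 3 far above. Without those 2 libraries the log2 fold changes were -0.43 for Anxa5 and -1.07 for Kremen1, against -2.06 and -2.48 with all libraries (edgeR adjusted p = 0.0949 for Anxa5 and 0.0697 for Kremen1 with all libraries).

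Bcar3, Pcdh20 and Gfap were on the other side. Bcar3, which encodes an adaptor of integrin signalling, had 43.8, 30.8 and 26.1 CPM in truncated SK3 base, against 12.6, 4.24 and 4.12 CPM in truncated SK3 apex. Pcdh20, a protocadherin gene known as a marker of a type I neuron subtype, had 129, 140 and 78.9 CPM in truncated SK3 base, against 19.6, 48.3 and 16.2 CPM in truncated SK3 apex. For Bcar3 and Pcdh20 the groups did not overlap, with log2 fold changes of 2.27 (SE 0.457) and 2.05 (SE 0.426), both at an edgeR adjusted p of 0.12. In control Pcdh20 was at 76.3 to 109 CPM in base and 49.3 to 77.3 CPM in apex, so the groups touched. The interaction against control for Pcdh20 was 1.38 (SE 0.545, edgeR adjusted p = 1). Gfap, the intermediate filament gene of astrocytes and non-myelinating glia, had 139.5, 226.4 and 54.3 CPM in truncated SK3 base, against 0.440, 2.30 and 0.168 CPM in truncated SK3 apex. All 3 base libraries of Gfap were high, with base replicate 2 the highest. Astrocyte markers that were not at 10 CPM or more in every library, Gfap among them, summed to 199.8, 369.7 and 97.99 CPM in truncated SK3 base. In truncated SK3 apex they summed to 75.81, 132.1 and 169.5 CPM, so these sums overlapped. The part of other cells in Gfap was not tested. In control Gfap was also above, at 3.46 to 19.8 CPM in base and 0 to 1.78 CPM in apex (interaction 2.14, SE 1.61, edgeR adjusted p = 1).

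**Figure D3:**
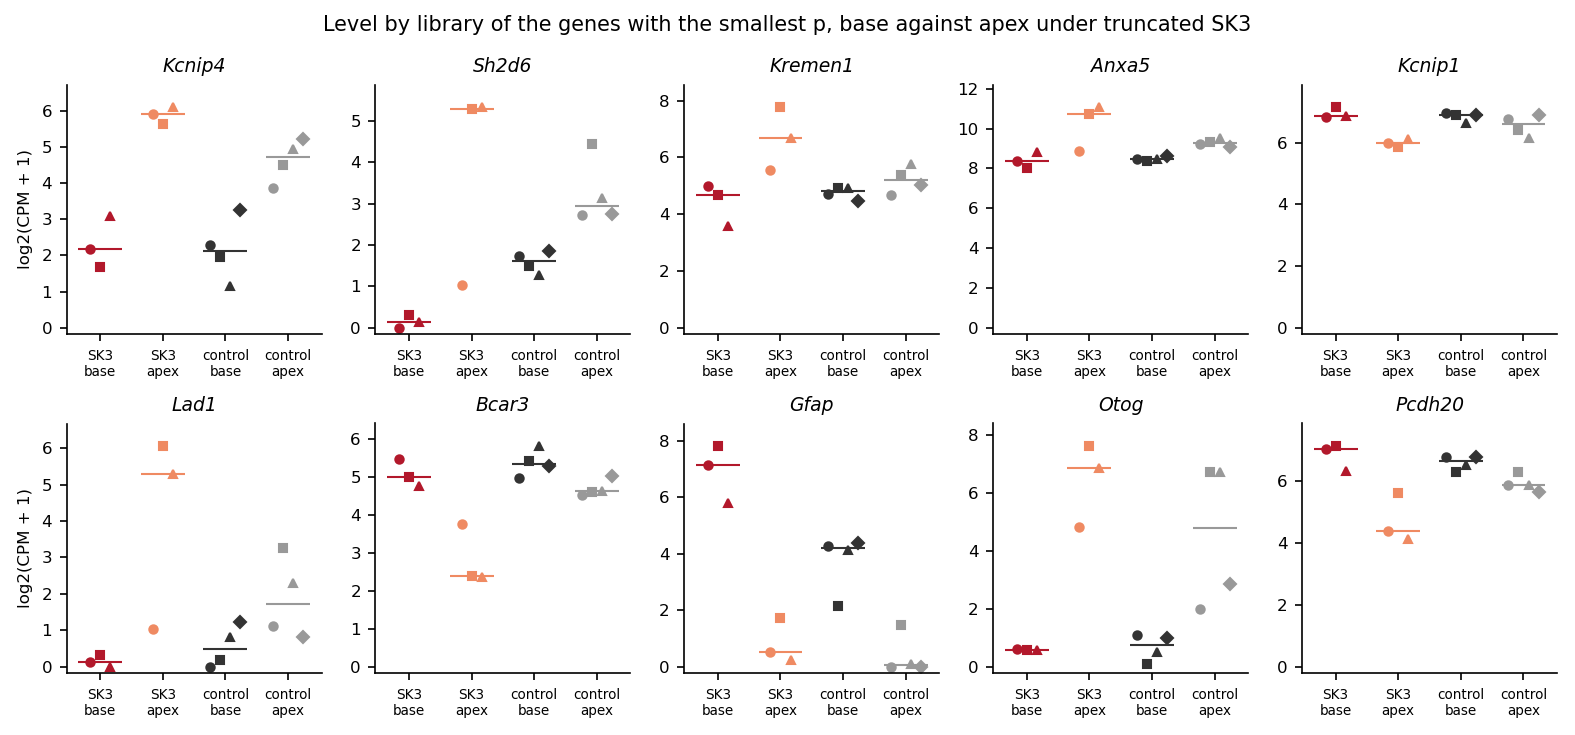
Level of the 10 genes with the smallest p in each library, as log2(CPM + 1), with a bar at each group's median. Circle, square, triangle and diamond are replicates 1 to 4. Kcnip4 and Kcnip1 are even within truncated SK3 apex, while Sh2d6, Lad1 and Kremen1 are highest in its replicates 2 and 3.

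Genes of adhesion, guidance, transmitter receptors and release described next were not called, and are given as levels. Among 24 cadherins and protocadherins, 3 were higher and 1 lower at an unadjusted p under 0.05 (16.7%, against 9.58% of all genes, median log2 fold change 0.11). Cdh22, a type II cadherin gene, had 38.4, 45.4 and 32.0 CPM in truncated SK3 base, against 4.67, 8.91 and 6.73 CPM in truncated SK3 apex. The groups of Cdh22 were far apart (log2 fold change 2.51, SE 0.651, edgeR adjusted p = 0.235), and in control they lay at almost the same levels, 20.5 to 38.7 CPM in base and 4.72 to 8.0 CPM in apex. Pcdh9 had 170, 60.3 and 39.9 CPM in truncated SK3 base, against 47.8, 24.1 and 8.75 CPM in truncated SK3 apex, so the groups overlapped, with base replicate 1 highest. Its log2 fold change of 1.75 was 0.90 without the base libraries rich in oligodendrocyte genes.

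Among 45 axon guidance genes, 3 were higher and 3 lower at an unadjusted p under 0.05 (13.3%, against 9.58% of all genes, median -0.13). Sema6a, a transmembrane semaphorin gene, had 195, 99.0 and 66.0 CPM in truncated SK3 base, against 48.2, 24.8 and 34.9 CPM in truncated SK3 apex. Ephb1, an ephrin receptor gene, had 54.0, 23.8 and 24.5 CPM in truncated SK3 base, against 14.9, 5.82 and 9.85 CPM in truncated SK3 apex. Both were apart between the groups, both were highest in base replicate 1, and the log2 fold changes of 1.74 (SE 0.389 for Sema6a, 0.462 for Ephb1) had edgeR adjusted p-values of 0.171 and 0.255. In control Ephb1 was at 22.1 to 79.1 CPM in base and 10.6 to 19.8 CPM in apex, with no overlap, while Sema6a overlapped. Among 21 node of Ranvier and contactin genes, 2 were higher and none lower at an unadjusted p under 0.05 (9.52%, near the 9.58% of all genes, median 0.00). Cntn5, an axonal contactin gene, had 70.2, 78.5 and 69.3 CPM in truncated SK3 base, against 35.0, 42.0 and 35.2 CPM in truncated SK3 apex. The libraries of a group were close to each other. The log2 difference was 0.96 (SE 0.254, edgeR adjusted p = 0.255) under truncated SK3 and 0.70 in control. Lgi3, a secreted protein gene of the axonal Kv1 complex, had 476, 407 and 271 CPM in truncated SK3 base, against 210, 224 and 187 CPM in truncated SK3 apex, without overlap (edgeR adjusted p = 0.302).

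On the apical side, Chrna4, a neuronal nicotinic acetylcholine receptor gene, had 10.7, 8.31 and 13.0 CPM in truncated SK3 base, against 30.9, 27.1 and 47.6 CPM in truncated SK3 apex. No library of Chrna4 crossed between the groups (log2 fold change -1.72, SE 0.426, edgeR adjusted p = 0.207). The groups of Chrna4 were also apart in control, at 4.03 to 14.9 CPM in base and 34.2 to 60.3 CPM in apex, and under DN-HCN2, at 12.7 to 30.6 CPM in base and 49.8 to 97.4 CPM in apex. Kcnab1, an auxiliary subunit gene of Kv1 channels, had 12.1, 17.4 and 7.16 CPM in truncated SK3 base, against 43.1, 62.8 and 20.1 CPM in truncated SK3 apex (log2 fold change -1.78, edgeR adjusted p = 0.332). Cplx2, a complexin gene of vesicle release, had 31.7, 34.9 and 26.5 CPM in truncated SK3 base, against 103, 82.7 and 117 CPM in truncated SK3 apex (log2 fold change -1.70, edgeR adjusted p = 0.442). For Kcnab1 and Cplx2 every base library was below every apex library. P2rx2, the ATP-gated channel gene, had 0.510, 31.2 and 4.55 CPM in truncated SK3 base, against 35.1, 226 and 212 CPM in truncated SK3 apex, again highest in apex replicates 2 and 3. Its log2 fold change of -3.70 was -1.54 without those 2 libraries, while those of Chrna4, Kcnab1 and Cplx2 were then -1.54, -1.82 and -1.74.

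**Figure D4:**
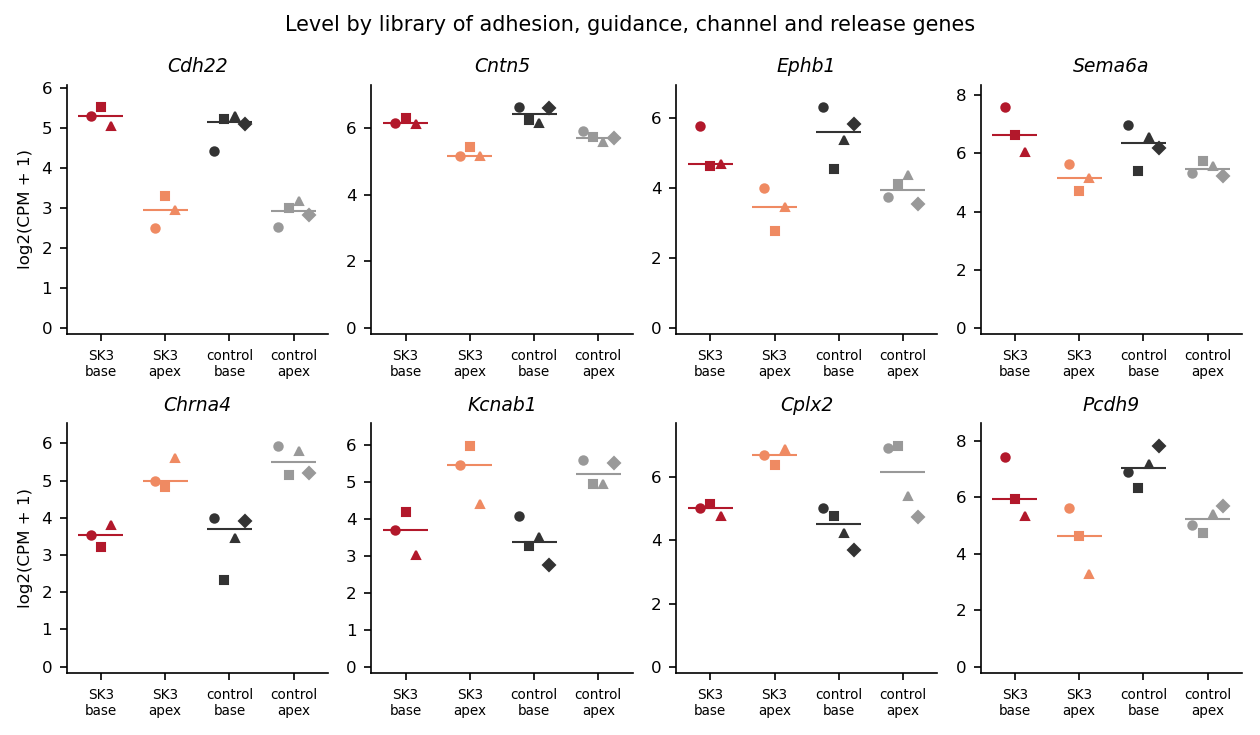
Level of 8 adhesion, guidance, channel and release genes in each library, as log2(CPM + 1), with a bar at each group's median. Circle, square, triangle and diamond are replicates 1 to 4. Cdh22 lies at 32.0 to 45.4 CPM in truncated SK3 base and 4.67 to 8.91 CPM in truncated SK3 apex, and Chrna4 has the opposite order.

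Among 14 neuropeptide and granin genes 4 were higher at an unadjusted p under 0.05 (28.6%, against 9.58% of all genes), led by Chga with 523, 612 and 648 CPM in truncated SK3 base, against 351, 385 and 410 CPM in truncated SK3 apex. The granin gene Chgb was also apart, at 866 to 1109 CPM in truncated SK3 base and 687 to 709 CPM in truncated SK3 apex, and neither was called (edgeR adjusted p = 0.333 for Chga and 0.491 for Chgb). Scg2 and Adcyap1, also among these 4, were near the floor. Scg2 was at 0 to 20.7 CPM in truncated SK3 base (median 0.646) and at 0 in truncated SK3 apex. Adcyap1 was at 0 to 2.91 CPM in base and 0 to 0.0718 CPM in apex. Of 36 synaptic vesicle and release genes, 0 were higher and 3 lower at an unadjusted p under 0.05, of 19 calcium channel subunits 0 were higher and 2 lower, of 12 sodium channel subunits 0 and 1, and of 23 immediate early genes 1 and 1. These were 8.33%, 10.5%, 8.33% and 8.70% of the lists, near the 9.58% of all genes. Of 15 type I subtype markers, 2 were higher and 1 lower at an unadjusted p under 0.05 (20%, against 9.58% of all genes, median 0.20). Rxrg, a retinoid receptor gene of that list, had 20.6, 31.1 and 27.5 CPM in truncated SK3 base, against 9.42, 6.54 and 0.757 CPM in truncated SK3 apex (log2 fold change 2.24, edgeR adjusted p = 0.289). Rasgrp1 of the same list went the other way, at 0 to 2.42 CPM in truncated SK3 base and 1.41 to 26.6 CPM in truncated SK3 apex. Its groups overlapped (log2 fold change -3.99, edgeR adjusted p = 0.4985). Gata3, a transcription factor gene of the inner ear that is kept in type II neurons and also expressed by otic epithelium, had 42.8, 69.7 and 51.1 CPM in truncated SK3 base, against 128, 524 and 256 CPM in truncated SK3 apex. Gata3 was highest in apex replicates 2 and 3, and its log2 fold change of -2.47 was -1.24 without them. Among 20 genes linked to position along the cochlea, 0 were higher and 4 lower at an unadjusted p under 0.05 (20%, against 9.58% of all genes, median -0.39). Chd7, a chromatin remodeler gene of that list, had 34.2, 25.5 and 32.1 CPM in truncated SK3 base, against 42.6, 81.0 and 52.5 CPM in truncated SK3 apex, again highest in apex replicate 2.

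Neither channel gene was called between base and apex. Kcnn3, which encodes SK3, had 0.204, 0.484 and 0.0967 CPM in truncated SK3 base, against 1.14, 0 and 1.94 CPM in truncated SK3 apex (log2 fold change -1.92, SE 1.84, edgeR adjusted p = 0.807). Hcn2 had 10.6, 11.5 and 81.9 CPM in truncated SK3 base, against 6.43, 53.3 and 63.4 CPM in truncated SK3 apex (log2 fold change -0.24, SE 0.928, edgeR adjusted p = 0.971). Neither gene separated the groups. Kcnn3 was near the floor, at no more than 1.94 CPM in any library of either group. Counts per gene do not tell the truncated channel from the mouse's own. Of 11 calcium-activated potassium channel genes, 0 reached an unadjusted p under 0.05 in either direction, and of 5 HCN channel genes 0, against 9.58% of all genes. Nalcn, the sodium leak channel gene, had 14.8, 23.1 and 7.35 CPM in truncated SK3 base, against 23.0, 32.0 and 49.8 CPM in truncated SK3 apex, and the groups overlapped (edgeR adjusted p = 0.41).

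Hair cell and epithelial genes were mostly on the lower side. Of 19 measured hair cell markers, 0 were higher and 7 lower at an unadjusted p under 0.05 (median log2 fold change -2.79, against 0.00 over all genes), and of 19 supporting cell and otic epithelium markers 1 was higher and 10 lower (median -2.01). These were 36.8% and 57.9% of the lists, against 9.58% of all genes. Otof, the calcium sensor gene of hair cell synapses, had 0.204, 0.484 and 1.64 CPM in truncated SK3 base, against 1.85, 371 and 47.0 CPM in truncated SK3 apex. Ocm, the oncomodulin gene of outer hair cells, had 1.53, 0.565 and 2.22 CPM in truncated SK3 base, against 24.3, 104 and 486 CPM in truncated SK3 apex. Pou4f3, a hair cell transcription factor gene, reached 0.0967 CPM at most in truncated SK3 base and 40.9 CPM in apex replicate 2, and Loxhd1, of the hair bundle, was at 0 in all 3 base libraries and at 0.176, 30.2 and 3.79 CPM in apex. Of the epithelial genes, the connexin gene Gjb2 had 35.9, 13.9 and 40.4 CPM in truncated SK3 base, against 70.5, 1104 and 614 CPM in truncated SK3 apex, and in control its groups overlapped (interaction -5.10, SE 1.57, edgeR adjusted p = 1). Lfng, a modulator of Notch, was at 0.871 to 3.77 CPM in base and 7.04 to 59.8 CPM in apex, and the adhesion gene Epcam at 1.84 to 43.8 CPM in base and 39.2 to 603 CPM in apex. Without apex replicates 2 and 3 the medians were -0.13 and -0.79, a description only, since these libraries were left out for these markers.

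Oligodendrocyte genes were mostly on the higher side. Of 20 measured markers, 16 were higher and 1 lower at an unadjusted p under 0.05, or 85%, against 9.58% of all genes (median 4.55, also with the 4 markers at 0 in a whole group set to the bound that 3 counts over the group allow). Mobp, a myelin gene of oligodendrocytes, had 2066, 17.8 and 45.5 CPM in truncated SK3 base, against 0.880, 0.934 and 0.926 CPM in truncated SK3 apex. Olig1, a lineage transcription factor gene, had 334, 17.3 and 6.87 CPM in truncated SK3 base and was at 0 in all 3 apex libraries. Base replicate 1 held most of both, yet base replicates 2 and 3 also lay above every apex library. Mog, a late myelin gene, was at 830 CPM in base replicate 1 and at 0.888 and 0.580 CPM in the others, against 0.287 to 0.589 CPM in truncated SK3 apex, and these overlapped. Of the myelin genes shared with Schwann cells, Mbp was at 5536 to 19031 CPM in base and 3120 to 5819 CPM in apex (log2 fold change 1.42). Mag was at 16.6 to 1172 CPM in base and 4.63 to 21.3 CPM in apex (log2 fold change 4.96). For Mbp and Mag, too, base replicate 1 was the highest and the groups overlapped. In the fit without the 4 base libraries of truncated SK3 and control that are rich in these genes the median was 0.60, again a description, since these markers chose the libraries.

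All 24 measured cholesterol synthesis genes had a positive log2 fold change, 9 of them at an unadjusted p under 0.05 (37.5%, against 9.58% of all genes) and 0 called (median 0.58). Fdps, of the mevalonate pathway, had 335, 80.5 and 116 CPM in truncated SK3 base, against 73.7, 82.9 and 42.8 CPM in truncated SK3 apex, and it shares 11.7% of its 50-base stretches with other genes. Cyp51, a lanosterol demethylase gene, had 348, 120 and 112 CPM in truncated SK3 base, against 113, 82.7 and 89.4 CPM in truncated SK3 apex. Mvk, the mevalonate kinase gene, had 78.4, 39.4 and 35.4 CPM in truncated SK3 base, against 20.3, 19.6 and 31.9 CPM in truncated SK3 apex, and Ebp, a sterol isomerase gene, 68.1, 36.8 and 66.5 against 38.2, 26.1 and 34.0 CPM. Base replicate 1, rich in oligodendrocyte genes, was the highest library for Fdps, Cyp51, Mvk and Ebp, for Ebp by a narrow margin over base replicate 3. Mvk alone of these separated the groups. In control, too, 24 of 24 were positive (median 0.47), where 3 of 4 base libraries were rich in oligodendrocyte genes. Without these 4 base libraries, 20 of 24 were positive under truncated SK3 (median 0.21) and 14 of 24 in control (median 0.04). With the 2 marker sums as covariates, 12 of 24 were positive under truncated SK3 (median 0.02). This is a description only, since these sums themselves differ between base and apex. The part of oligodendrocyte RNA in the cholesterol synthesis genes was not tested.

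Whether the regional differences under truncated SK3 departed from those of the other conditions was tested by interaction. In edgeR 0 genes were called against control, with 545 at an unadjusted p under 0.05 (3.64%), 21 called by DESeq2 and 0 by limma-voom. Against DN-HCN2 edgeR called 0, with 1353 at an unadjusted p under 0.05 (9.04%), 114 called by DESeq2 and 0 by limma-voom. Within control, edgeR called 0 genes between base and apex, with 722 at an unadjusted p under 0.05 (4.82%), while DESeq2 called 83 and limma-voom 42. Under DN-HCN2 it called 32 (0.214%), Kcnip4 and Kcnip1 among them. Of the 100 genes with the smallest p under truncated SK3, 90 had the same sign in control and 67 under DN-HCN2, against 60.2% and 54.5% of all genes. These comparisons share no library. Of the 100 smallest p in the fit without apex replicates 2 and 3, 72 had the same sign in control against 55.5% of all genes, and without the 4 base libraries rich in oligodendrocyte genes 72 against 55.3%. With both marker sums as covariates 92 of the 100 leading genes had the same sign in control, against 66.8% of all genes. That fit gives each sum the same effect in all libraries. The 2 sums differ between base and apex in the same direction in truncated SK3 and in control. An error in such an effect therefore shifts both differences alike, so part of this agreement may be built in, and it is a description only.

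**Figure D5:**
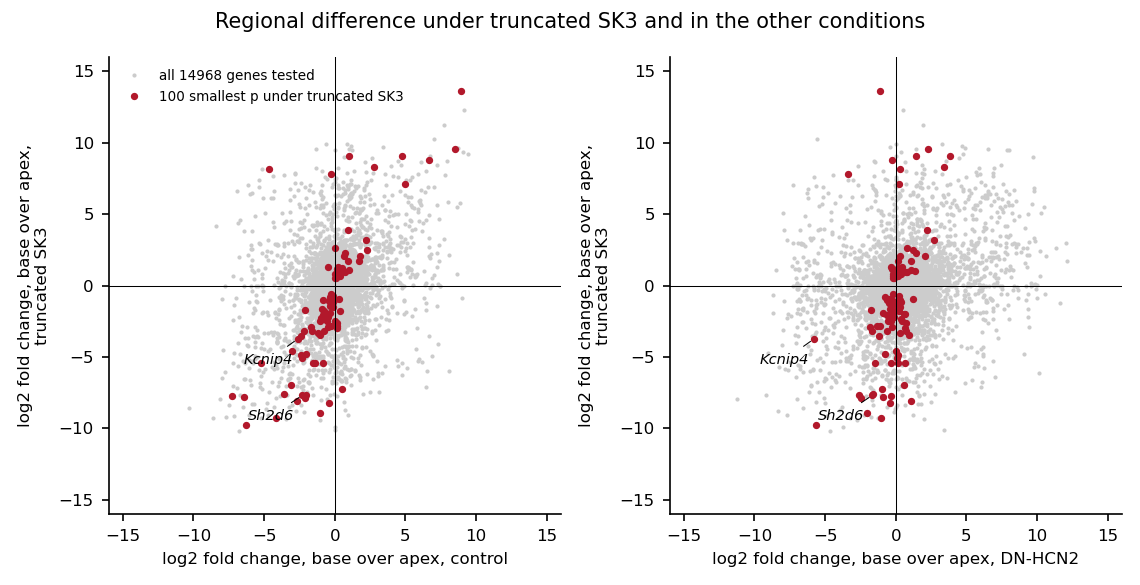
Log2 fold change of base over apex under truncated SK3 (vertical) against that in control (left) and under DN-HCN2 (right), for all 14968 genes tested (grey) and the 100 with the smallest p under truncated SK3 (red). Of the red points, 90 lie in the quadrants of equal sign in the left panel and 67 in the right panel.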

How the data were processed

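The authors deposited 1 table of read counts per gene symbol for 21 libraries. The submitters' processing notes name Trimmomatic, HISAT2, DESeq2 and the builds GRCm38 and mm10, without versions or settings, and the counter and its strand setting are not given in the sources used here. The table has 21878 lines, 3555 of them at 0 throughout, and 27 lines carry a date in place of a symbol (25 were tested, none is named). Genes were filtered with filterByExpr by group, which left 14968, scaled by TMM and fitted with robust edgeR 4.0.16 (R 4.3.3, limma 3.58.1) in 1 quasi-likelihood model of 6 group means over all 21 libraries. P-values were adjusted by the Benjamini-Hochberg method over all genes tested and called under 0.05. SE follows from the F statistic. No 2 libraries of the same group agreed within sampling noise, and pairs from different groups were not checked this way. Alternatives were RLE scaling, no filter, a minimum of 10 CPM in at least 3 libraries, and the tools DESeq2 1.42.0 and limma-voom with sample weights, a fit of the compared groups alone, the replicate number as a block, and each library left out. Genes named were Kcnn3, Hcn2, called genes, the 10 smallest p among genes averaging 10 CPM in the higher group, and up to 4 members of a list by smallest p. Not all are reported here. Kcnd1, Kcnd2 and Kcnd3 were added outside this rule. These genes and the gene lists were chosen with earlier results of these data known. Coordinates are from GENCODE M21, which held 96.6% of the tested symbols. The code was tested on simulated data. Figures used Python and matplotlib.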

Additional observations from a re-analysis of the deposited data

Results flagged for a closer look

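In groups of 4 libraries, 14 of 137 tested sets of values had 1 library far from the others by Dixon's criterion, which chance meets in about 1 of 20. None lies in the truncated SK3 groups, whose 3 libraries are too few for it. In control apex, replicate 2 stood above the nearest library with Sh2d6 at 20.9 CPM (nearest 7.86), Gfap at 1.78 CPM (0.0678), Otof at 23.2 CPM (3.75) and Pou4f3 at 42.5 CPM (5.84), and replicate 1 with Mobp at 2.55 CPM (0.926). In control base, P2rx2 was at 6.26 CPM in replicate 4 (1.22), Ocm at 8.19 CPM in replicate 1 (2.53), and Mbp was low at 4710 CPM in replicate 2 (7528). In DN-HCN2 apex, replicate 1 stood apart with Gata3 at 573 CPM (198), Pou4f3 at 43.2 CPM (7.13), Gjb2 at 250 CPM (127), Epcam at 396 CPM (127) and Fdps at 108 CPM (87.9), and replicate 2 with Mog at 0.544 CPM (0.261). Control apex replicate 2 and DN-HCN2 apex replicate 1 were also the highest of their groups in the sum of the 15 hair cell markers that were not at 10 CPM or more in every library, at 1478 and 422 CPM. Over the whole list DN-HCN2 apex replicate 1 was the lowest of its group, at 4893 CPM. The part of other cells in these values was not tested.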

How the results depend on the processing

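The 2 calls under truncated SK3 were the same number with RLE scaling, 3 without a filter and 2 at 10 CPM in 3 libraries. They became 212 with DESeq2, 0 with limma-voom, 0 with only the 6 libraries, and 0 to 26 without 1 library. In control the count of 0 became 83, 42 and 37 with DESeq2, limma-voom and only the libraries compared, and 0 to 2 without 1 library. Under DN-HCN2 the 32 calls became 18 without a filter, 379, 0 and 0 with these 3, and 4 to 178 without 1 library. The interaction with control went to 21 with DESeq2, that with DN-HCN2 to 114, and to 0 to 3 without 1 library. Replicate numbers do not pair the libraries by the labels. Deviations of same-numbered base and apex libraries under truncated SK3 correlated at 0.0915, 0.0798 and 0.192, each library best with its own number, a hint from the data only. This pattern did not hold in the other conditions, with 0.127, 0.0248, 0.124 and -0.0769 in control and -0.0987, 0.00072 and -0.0329 under DN-HCN2. With the replicate block within a condition the counts were 11 under truncated SK3, 6 in control and 3 under DN-HCN2. Chosen after seeing the data were fits without truncated SK3 apex replicates 2 and 3, without truncated SK3 base replicate 1 and control base replicates 1, 3 and 4, and with both marker sums as covariates. Each gave 0 calls under truncated SK3, and the covariates gave 17 under DN-HCN2 and 1 in the interaction with it. The sign turned for Kcnn3 with limma-voom (0.48), and for Hcn2 without apex replicate 3, base replicate 1 or base replicate 2 (0.21, 0.18 and 0.19; -1.89 to 0.21 over the 6 fits), without the 2 apex libraries (2.42) and without the 4 base libraries (0.20). With the covariates, which are built from such markers, it turned for Mog (-1.28), Mag (-0.53) and also for Cyp51 (-0.18); the cause was not tested. Of the values of single genes under the alternatives, 664 kept sign and side of the threshold, 37 passed it only under an alternative (28 with DESeq2), 20 lost it and 9 changed sign. The 3 libraries of a group limit what could be detected.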
